A study of Mus musculus with 6 samples.

Results

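The genes described here copy the genome and supply its building blocks: the proteins that license and fire replication origins, the replicative helicase, the polymerases with their clamp and clamp loader, the enzymes that join fragments, those that make deoxynucleotides, and those that restore chromatin behind the fork. They were chosen by name, as a list of 47 symbols, and each was read from the probe set with the highest mean signal among those that the platform annotation assigns to that gene alone. 46 of the 47 had such a probe set, out of 18193 genes on the arrays. Chaf1a, a subunit of the histone chaperone CAF-1, had none and was not analysed here. The 46 genes had 99 probe sets in all, and 34 of them had more than 1.

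The 6 arrays came from 3 related mouse lines of hepatocellular carcinoma, a cancer of liver cells. BL185 is the parent. M1 and I1 derive from BL185 cells picked for their migration, and they are titled subclone lines although the protocol calls them subpopulations; each is 1 line. All were grown in DMEM with serum. The arrays were made to set the migratory lines against the parent. A subclone not selected for migration was not measured, and nothing in the labels tells whether replicate arrays came from separate cultures, so each p-value here reflects array-to-array spread that may be technical.

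DNA replication starts when the origin recognition complex, Cdc6 and Cdt1 load the ring of Mcm2 to Mcm7 onto DNA in G1 phase, while geminin, the product of Gmnn, keeps Cdt1 from reloading it later in the cycle. In S phase Cdc45 and the GINS complex join the ring and make it an active helicase, behind which the primase, the polymerases and the PCNA clamp copy both strands. Many of these genes are transcribed at the boundary of G1 and S phase under E2F transcription factors, and their summed level in a culture is a common measure of how much of it is proliferating. In RNA from a whole culture, more cells in S phase and more RNA per such cell cannot be told apart.

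Because E2F sites are a known shared feature of such promoters, RefSeq promoter windows (GRCm38.p6) were searched for 4 words, TTTCGCGC, TTTGGCGC, TTTCCCGC and TTTGCCGC, on both strands, and for the CCAAT box, CCAAT, on both strands. A window ran from 250 bases before to 50 bases after a transcription start, and 37 of the 46 genes had at least 1. An E2F word was present for 16 of the 37 (43.2%), against 2.60% of all 27025 genes with a window, and a CCAAT box for 23 (62.2%), against 41.1%. Shown here, from 172 bases before to 8 bases after the start, are the 3 genes that passed the test below in both selected lines, then Mcm6, and then Rfc3 and Ung, which had lower signals in I1 than in the parent. Capitals mark E2F words and CCAAT boxes, and words that overlap run together.
Mcm5 (chr8:75109337-75109516, plus strand): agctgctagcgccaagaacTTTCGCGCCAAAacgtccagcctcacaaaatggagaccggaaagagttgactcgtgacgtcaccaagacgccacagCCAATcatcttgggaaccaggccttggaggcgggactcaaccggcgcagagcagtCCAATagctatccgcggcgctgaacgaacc
Pclaf (chr9:65890151-65890330, plus strand): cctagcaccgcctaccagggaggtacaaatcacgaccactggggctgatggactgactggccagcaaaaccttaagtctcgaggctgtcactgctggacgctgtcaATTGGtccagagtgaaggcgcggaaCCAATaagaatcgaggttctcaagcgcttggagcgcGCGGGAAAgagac
Tk1 (chr11:117826007-117826186, minus strand): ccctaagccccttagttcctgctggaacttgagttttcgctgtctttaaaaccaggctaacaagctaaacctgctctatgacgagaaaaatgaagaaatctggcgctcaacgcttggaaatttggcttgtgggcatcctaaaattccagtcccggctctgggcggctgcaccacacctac
Mcm6 (chr1:128359698-128359877, minus strand): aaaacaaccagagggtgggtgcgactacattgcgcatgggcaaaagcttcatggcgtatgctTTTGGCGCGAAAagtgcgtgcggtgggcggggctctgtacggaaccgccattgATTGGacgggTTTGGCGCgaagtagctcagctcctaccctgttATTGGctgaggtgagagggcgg
Rfc3 (chr5:151651201-151651380, minus strand): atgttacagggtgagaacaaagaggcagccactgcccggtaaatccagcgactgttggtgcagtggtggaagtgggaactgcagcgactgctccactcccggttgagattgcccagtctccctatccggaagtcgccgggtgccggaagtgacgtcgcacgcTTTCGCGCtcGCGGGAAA
Ung (chr5:114130263-114130442, plus strand): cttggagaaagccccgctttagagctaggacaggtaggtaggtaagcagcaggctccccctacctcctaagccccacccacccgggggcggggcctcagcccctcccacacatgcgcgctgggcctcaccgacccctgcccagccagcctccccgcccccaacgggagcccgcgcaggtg
The stretch of Mcm5 holds 2 E2F words that overlap and 2 CCAAT boxes, and that of Pclaf 1 word across the start and 2 boxes. That of Mcm6 holds 3 words and 2 boxes. The stretch of Tk1 holds neither, although Tk1 was among the genes that rose most, and that of Rfc3 holds 2 words at the start, although Rfc3 did not pass the test. A match describes these letters and is not a measured binding site.

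The labelled cell type was checked against its markers. Krt8 and Krt18, the keratins of simple epithelium, and Hnf4a, a transcription factor of hepatocytes, had log2 signals from 11.94 to 15.23 on all 6 arrays, whereas the hepatocyte product Alb lay between 7.53 and 8.43 and the fetal liver product Afp between 7.14 and 9.89. Of the 11 hepatocyte markers 1 passed the test. The markers named after their values were seen are Fgb, Krt8, Cd68, Cd53, Acta2, Csf1r, Cd3e and Kdr. Fgb, a chain of the clotting protein fibrinogen, fell in M1 (−1.78, SE 0.22; limma adjusted p = 0.047) and read −1.93 as a change in I1 (limma adjusted p = 0.050), without overlap of arrays. The array medians over all probe sets were 7.87 to 8.11, and a signal about there or lower cannot be told from background. Col1a1 of fibroblasts (7.22 to 8.41), Ptprc of leukocytes (6.25 to 7.17) and Pecam1 of endothelium (6.61 to 7.76) were about that level or below it. Other markers of these lists lay above it on all arrays, among them Acta2 (9.79 to 10.48), Csf1r (9.05 to 10.31), Cd3e (8.84 to 9.20) and Kdr (8.58 to 9.22). The log2 of the summed signal was 11.2 to 11.3 in BL185, 11.4 to 11.8 in M1 and 11.6 in I1 for 9 fibroblast and stellate markers, 10.0 to 10.1, 10.3 and 10.2 for 6 endothelial markers, and 12.01 to 12.10, 11.18 to 11.82 and 11.37 to 11.54 for 8 macrophage and leukocyte markers. No value is 0 on this scale. Of the 8, Cd68 fell in M1 (−3.21) and I1 (−3.05) and Cd53 fell in M1. In the fit to all 6 arrays 0 markers of the 3 lists were higher by limma, also at an unadjusted p under 0.05. By limma on the BL185 and I1 arrays alone, 5 of the 9 fibroblast and stellate markers were called higher (22.5% of all genes). So were 3 of the 8 macrophage and leukocyte and 1 of the 6 endothelial markers. That fit called 2 of the 8 lower (24.1%) and 0 of the others. Arrays of I1 lay above the parent without overlap for 6 of the 9 fibroblast and stellate markers (42.6% of all genes). The same held for 6 of the 8 macrophage and leukocyte and 3 of the 6 endothelial markers. In M1 the counts were 5, 4 and 3 (26.2%). Lower without overlap were 2 of the 8 in each line (25.7% of all genes in M1 and 33.5% in I1) and 0 of the others. Without M1 replicate 1 the median changes, in the same order, were 0.16, 0.02 and 0.08 in M1 (0.03 over all genes). In I1 they were 0.31, 0.26 and 0.09 (0.06). The part of these markers in the results was not tested. Replicate arrays differed by an SD of 0.10 in BL185, 0.16 in I1 and 0.65 in M1 (log2, all genes), and M1 replicate 1 had the narrowest spread of signals. The 18S ribosomal RNA control at the 3′ end read 10.11 and 10.14 in BL185, against 12.50 and 10.68 in M1 and 11.27 and 11.51 in I1. The 3′ minus 5′ signal of Actb was 1.08 and 0.88, 1.43 and 1.24, and 1.47 and 1.43. Both measures moved with the lines, and their part in the results was not tested.

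Replication genes had higher signals in both selected lines than in the parent. In M1 the median log2 change of the 46 genes was 0.94, against 0.07 over all genes tested, and 44 of the 46 changes were above 0. In I1 the median was 0.87, against 0.06, and 43 were above 0. A mean at least 2-fold higher was found for 22 of the 46 in M1 and 17 in I1, where 2.7% and 2.45% of all genes were as much higher. None of the 46 was 2-fold lower in either line, against 10.6% and 5.82% of all genes. Both comparisons use the same BL185 arrays, so they are not independent of each other.

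By limma with Benjamini-Hochberg adjustment, 3 of the 46 rose and 0 fell in M1, where 0.275% of all genes were called higher and 0.605% lower. In I1 3 also rose and 0 fell, against 0.192% and 0.319%. They were Pclaf, Tk1 and Mcm5 in each line. At an unadjusted p under 0.05, 27 of the 46 were higher in M1 (3.92% of all genes) and 22 in I1 (4.18%), and 0 were lower in either line (11.5% and 7.47%). The counts turn on single arrays. Without M1 replicate 1, 45 of the 46 were called higher in M1 (11.7% of all genes) and 0 lower (12.3%) with a median of 1.41, and 31 were called at least 2-fold higher (3.79%) and 0 lower (3.26%); M1 is then 1 array, whose spread is taken from the other lines. For I1 this fit and the one without M1 replicate 2 equal the fit to the BL185 and I1 arrays alone, given below. A single M1 array adds no spread of its own. Without M1 replicate 2, 28 were called higher and 6 lower in M1, in a fit that called 32.4% of all genes higher and 38.4% lower. With either BL185 array or either I1 array left out, the calls did not hold for these genes or for any other gene. The medians of the 46 were then 0.94 to 1.00 in M1 and 0.75 to 0.96 in I1. Quantile normalization of the deposited values gave 29 higher in M1 (3.48% of all genes) and 22 in I1 (3.34%), with 0 lower in either (2.98% and 2.05%). A fit to the arrays of the compared lines alone gave 0 in M1, where 0% of all genes passed, and 38 higher (22.5%) and 2 lower (24.1%) in I1.

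**Figure D1:**
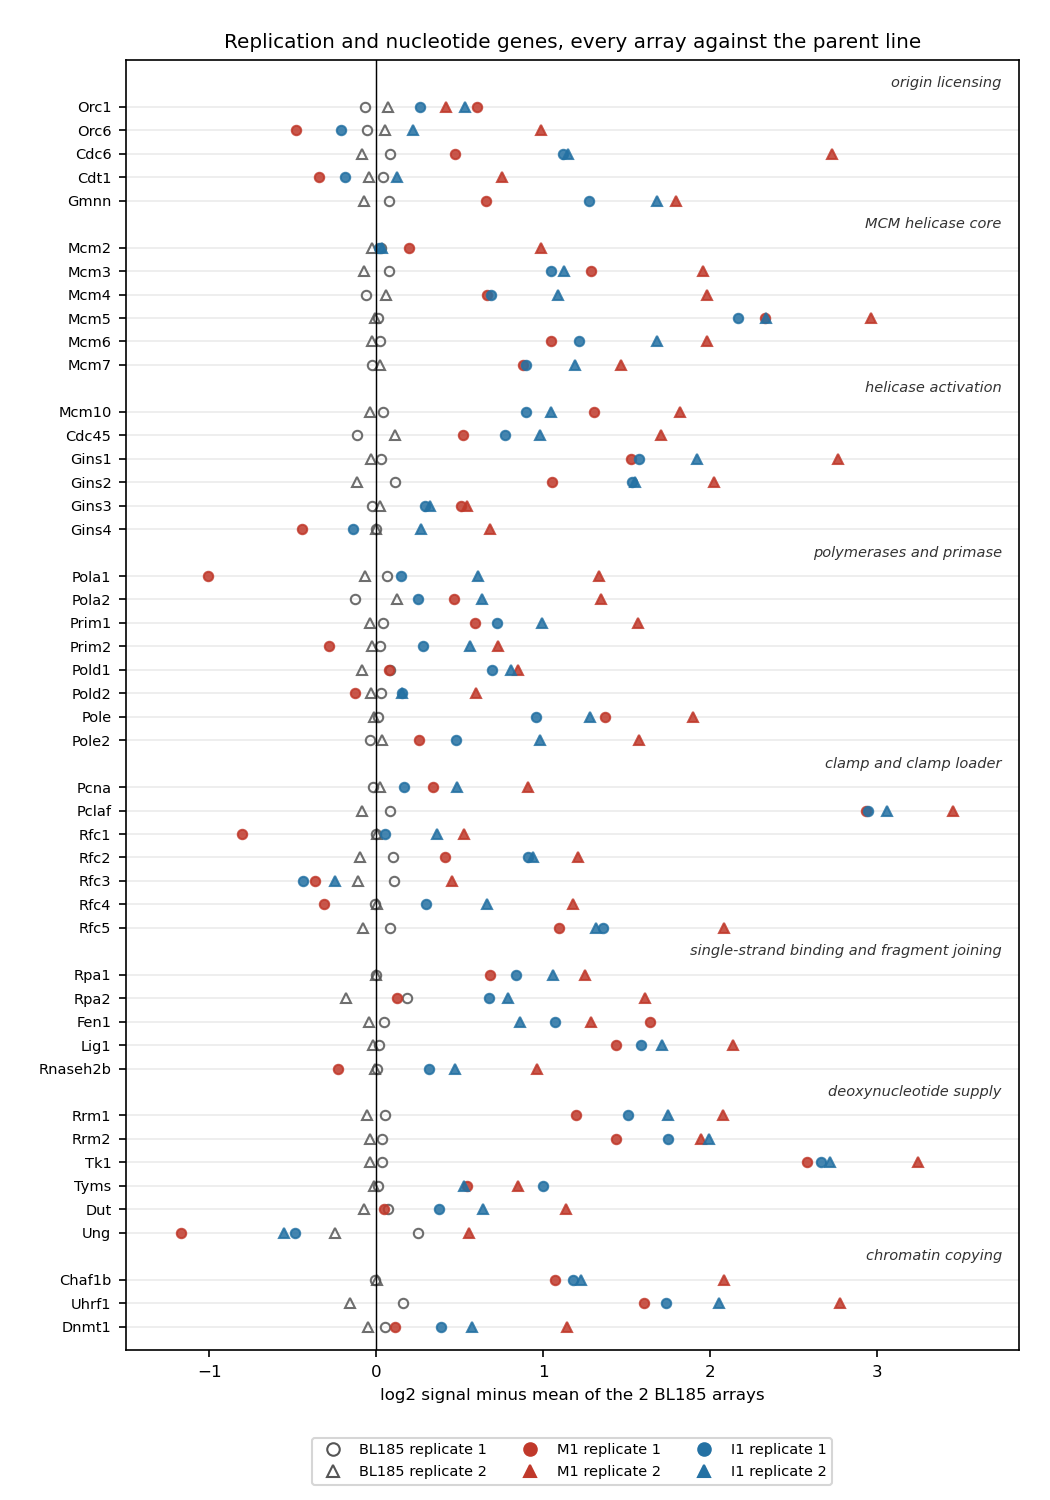
Log2 signal of each of the 46 genes on each array minus the mean of the 2 BL185 arrays (x axis, log2 units), grouped by role, with circles for replicate 1 and triangles for replicate 2. Pclaf, Tk1 and Mcm5 lie farthest to the right on all 4 arrays of M1 and I1 together, whereas Ung, Rfc3, Rfc1, Orc6, Gins4 and Cdt1 lie around 0.

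Other genes of similar brightness had medians below 0 on the same arrays. M1 replicate 1 read 35 of the 46 genes above the parent mean, and M1 replicate 2 read all 46 above it. I1 replicate 1 had 41 above the parent mean and I1 replicate 2 had 44. The median over the 46 was 0.53 and 1.41 on the M1 arrays and 0.75 and 0.96 on the I1 arrays. For the 3748 other genes whose mean signal lay between 10.0 and 11.7, the quartiles of the members' own means, the medians were −1.02, −0.03, −0.32 and −0.17 in the same order. When each gene's change was set against the median of the 200 genes nearest to it in mean signal, the median of the 46 was 1.38 in M1 and 1.01 in I1, with 45 and 44 above 0. This measure is a description with no test.

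**Figure D2:**
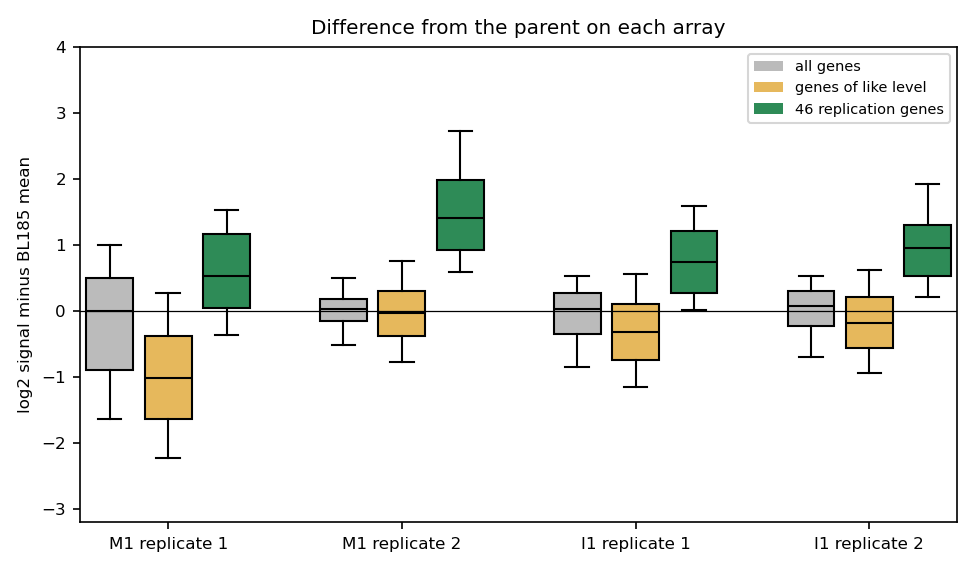
Log2 signal minus the BL185 mean (y axis) on each M1 and I1 array for all 18193 genes, for 3748 other genes of like level and for the 46 replication genes; boxes span the quartiles with the median as a line, and whiskers run from the 10% to the 90% point. On M1 replicate 1 the genes of like level had a median of −1.02 and the replication genes 0.53.

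The groups that follow are read beside all genes. At an unadjusted p under 0.05, 3.92% of all genes were higher in M1 and 4.18% in I1. Higher without overlap of arrays were 26.2% in M1 and 42.6% in I1, so lack of overlap alone does not set a gene apart. Origin licensing genes had uneven changes. By limma 0 of the 5 passed the test in either line, 2 and 1 were higher at an unadjusted p under 0.05, and their median changes were 0.51 in M1 and 0.40 in I1. Cdc6, the ATPase that brings the helicase to the origin, read 7.94 and 7.78 in BL185, against 8.34 and 10.59 in M1 and 8.98 and 9.01 in I1. All 4 selected arrays lay above both parent arrays, but the parent values are near the array medians and the M1 arrays stood far apart. Gmnn, the inhibitor of relicensing, read 10.56 and 10.40 in BL185, against 11.14 and 12.28 in M1 and 11.76 and 12.16 in I1, again without overlap (log2 change 1.23 ± 0.41 in M1 and 1.48 ± 0.41 in I1; SE; limma adjusted p = 0.27 and 0.25). Cdt1, which geminin binds, read 12 and 11.92 in BL185, against 11.61 and 12.71 in M1 and 11.77 and 12.09 in I1, so both selected lines straddled the parent. Orc6 did the same, with changes of 0.25 and 0.01. Orc1, the large ATPase subunit of the origin recognition complex, had changes of 0.51 and 0.40, and was the gene not called in M1 without M1 replicate 1.

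Of the helicase ring, 1 of 6 subunits rose in each line and 5 in M1 and 4 in I1 had an unadjusted p under 0.05. The median change of Mcm2 to Mcm7 was 1.42 in M1 and 1.07 in I1. Mcm5 read 10.22 and 10.20 in BL185, against 12.53 and 13.17 in M1 and 12.37 and 12.54 in I1. All 4 selected arrays lay far above the pair of parent arrays. Mcm5 rose 6.26-fold in M1 (2.65 ± 0.26, SE; limma adjusted p = 0.028) and 4.76-fold in I1 (2.25 ± 0.26; limma adjusted p = 0.049). The call in I1 was at the threshold and was lost with 50 added to the linear signals (limma adjusted p = 0.053). It was also lost with the variance allowed to follow the mean signal (limma adjusted p = 0.053). With the replicate number as a block, Mcm5 was called in neither line (limma adjusted p = 0.055 in M1 and 0.092 in I1). The chosen Mcm5 probe set is of the x type, whose probes may match other transcripts. A brighter one of its 2 other probe sets gave 2.36 and 1.79, and the dim one 0.36 and 0.51.

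The other ring subunits did not pass the test. Mcm2 read 11.91 and 11.86 in BL185, against 12.08 and 12.87 in M1 and 11.90 and 11.92 in I1, so I1 and the parent overlapped. Its other probe set read 0.81 and −0.10 as changes. On the chosen probe sets, Mcm3, Mcm4, Mcm6 and Mcm7 had changes of 1.17 to 1.62 in M1 and 0.89 to 1.45 in I1. None of these overlapped with the parent in either line. The other probe sets of Mcm3 gave 1.51, 1.31, 0.46 and 0.22 in M1 and 1.05, 0.97, 0.01 and 0.26 in I1. The one with 0.46 and 0.01 overlapped with the parent in both lines. Other probe sets of Mcm4, Mcm6 and Mcm7 had positive changes in both lines. The subunits sit in the ring in equal numbers, but the signals of their chosen probe sets shifted by unequal amounts on the M1 and I1 arrays. Probe sets of the same gene differed too, as for Mcm5, so such a difference may lie in the probes rather than the transcripts. Relative to the parent mean, Mcm5 exceeded Mcm2 by 2.13 and 1.98 on the M1 arrays and 2.15 and 2.30 on the I1 arrays, and by −0.02 and 0.02 on the BL185 arrays. This difference and the other differences within a complex given here were chosen after the values were seen and were not tested.

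**Figure D3:**
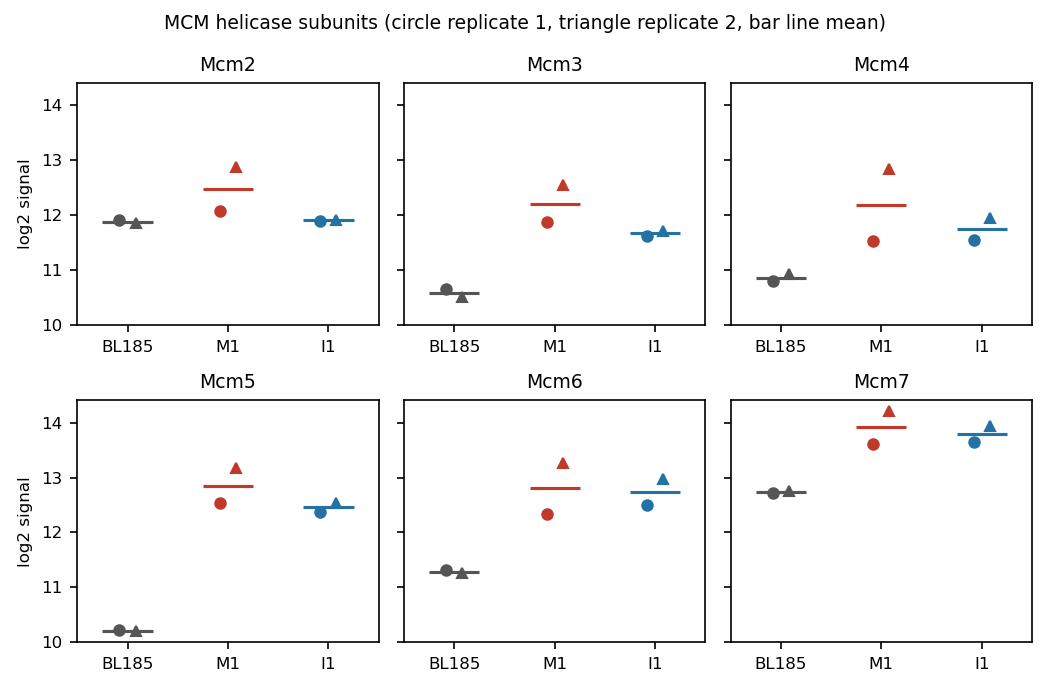
Log2 signal (y axis) of Mcm2 to Mcm7 in the 3 lines, with a circle for replicate 1, a triangle for replicate 2 and a bar for the line mean of 2 arrays. Mcm5 goes from 10.21 in BL185 to 12.85 in M1 and 12.46 in I1, whereas Mcm2 stands at 11.89, 12.48 and 11.91.

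The factors that activate the helicase had medians of 1.33 in M1 and 0.92 in I1, with 0 of 6 called and 5 and 3 at an unadjusted p under 0.05. Gins1 read 8.24 and 8.18 in BL185, against 9.73 and 10.97 in M1 and 9.79 and 10.13 in I1, the largest change in the group (2.15 ± 0.43 and 1.75 ± 0.43, SE; limma adjusted p = 0.11 and 0.20). All 4 selected arrays lay above the parent. Gins4, another subunit of the same 4-part complex, read 11.19 on both BL185 arrays, 10.75 and 11.87 in M1 and 11.05 and 11.46 in I1, on both sides of the parent. Gins1 exceeded Gins4, relative to the parent, by 1.97 and 2.08 on the M1 arrays and 1.72 and 1.65 on the I1 arrays. Gins2 (1.54 in each line) lay with Gins1, and Gins3 (0.53 and 0.31) between. Mcm10, a scaffold needed for the helicase to start, read 9.28 and 9.20 in BL185, against 10.55 and 11.06 in M1 and 10.14 and 10.29 in I1 (1.56 ± 0.23 and 0.97 ± 0.23, SE; limma adjusted p = 0.063 and 0.19). Cdc45, the third part of the active helicase, had changes of 1.11 and 0.88.

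The polymerases and primase had medians of 0.68 in M1 and 0.59 in I1, with 0 of 8 called and 3 and 2 at an unadjusted p under 0.05. Pole, the catalytic subunit of the leading-strand polymerase epsilon, stood out among them and read 9.13 and 9.11 in BL185, against 10.49 and 11.02 in M1 and 10.08 and 10.40 in I1. The lines did not overlap with the parent (1.63 ± 0.25 and 1.12 ± 0.25, SE; limma adjusted p = 0.067 and 0.17). Pole2, its accessory subunit, had changes of 0.91 and 0.73. Pola1, the catalytic subunit of polymerase alpha, read 8.26 and 10.60 on the M1 arrays against 9.33 and 9.20 in BL185, so the 2 M1 arrays gave opposite directions. Its partner Pola2 had changes of 0.90 and 0.44, and the primase subunits Prim1 and Prim2 had 1.08 and 0.22 in M1 and 0.86 and 0.42 in I1. Pold1 and Pold2, of the lagging-strand polymerase delta, had 0.46 and 0.23 in M1, with overlap of the arrays, and 0.75 and 0.15 in I1.

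Among the clamp genes, Pclaf showed the largest change of the 46 in both lines. Its product is a small protein that binds PCNA at the fork. It read 9.67 and 9.49 in BL185, against 12.52 and 13.04 in M1 and 12.53 and 12.64 in I1. The selected arrays lay close together and far above the parent. Pclaf rose 9.17-fold in M1 (3.20 ± 0.23, SE; limma adjusted p = 0.017) and 8.02-fold in I1 (3.00 ± 0.23; limma adjusted p = 0.029). Its second probe set gave 2.18 and 1.74, from parent signals of 7.32 and 7.38 that are at background, and another, at 6.36 to 6.93 on all arrays, gave 0.27 and 0.28. Pcna itself read 13.12 and 13.16 in BL185, against 13.48 and 14.05 in M1 and 13.31 and 13.62 in I1. Its change was far smaller (0.62 ± 0.26 and 0.32 ± 0.26, SE; limma adjusted p = 0.34 and 0.69) and its arrays did not overlap with the parent either.

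The clamp loader split by subunit. Rfc5 read 9.70 and 9.54 in BL185, against 10.72 and 11.70 in M1 and 10.98 and 10.93 in I1, without overlap (1.59 ± 0.35 and 1.34 ± 0.35, SE; limma adjusted p = 0.13 and 0.22). Rfc1, the large subunit, read 11.25 on both BL185 arrays, 10.45 and 11.78 in M1 and 11.31 and 11.62 in I1. Other probe sets of Rfc1 gave −0.34 and −0.23 in M1 and −0.36 and −0.01 in I1. The brighter of these lay below the parent on all M1 and I1 arrays. Rfc3 read 10.22 and 10.00 in BL185, against 9.74 and 10.57 in M1 and 9.67 and 9.86 in I1, where it was below the parent on both arrays. Its other probe set gave −0.36 and −0.80. Relative to the parent, Rfc5 exceeded Rfc3 by 1.47 and 1.63 on the M1 arrays and 1.80 and 1.56 on the I1 arrays. Rfc2 (0.81 and 0.92) and Rfc4 (0.43 and 0.48) lay between.

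Genes for single-strand binding and for joining Okazaki fragments had medians of 0.97 and 0.95, with 0 of 5 called and 3 at an unadjusted p under 0.05 in each line. Lig1, the ligase that seals the fragments, read 10.70 and 10.67 in BL185, against 12.12 and 12.82 in M1 and 12.27 and 12.40 in I1 (1.79 ± 0.27 and 1.65 ± 0.27, SE; limma adjusted p = 0.066 and 0.10). Fen1, the nuclease that trims their flaps, read 12.51 and 12.42 in BL185, against 14.11 and 13.75 in M1 and 13.54 and 13.33 in I1 (1.46 ± 0.21 and 0.97 ± 0.21; limma adjusted p = 0.058 and 0.16). In both genes all selected arrays lay above the parent. On the chosen probe sets, Fen1 and Orc1 were the 2 genes of the 46 that read higher on M1 replicate 1 than on replicate 2. Another probe set of each read the other way, at 10.46 and 11.92 for Fen1 and 8.32 and 9.29 for Orc1. The chosen Fen1 probe set is of the x type, as is that of Mcm5. Rpa1, the large subunit of the single-strand binding protein, had changes of 0.97 and 0.95, Rpa2 0.87 and 0.73, and Rnaseh2b, a subunit of the nuclease that removes ribonucleotides from DNA, 0.37 and 0.40.

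In deoxynucleotide supply 1 of 6 genes rose in each line, and 4 were higher at an unadjusted p under 0.05. The medians were 1.17 in M1 and 1.20 in I1. These counts and medians include Ung, which acts on uracil in DNA and makes no deoxynucleotide. Tk1, the S phase thymidine kinase of the salvage pathway, read 9.83 and 9.76 in BL185, against 12.38 and 13.04 in M1 and 12.46 and 12.51 in I1. All 4 selected arrays lay far above the parent, and no other probe set of Tk1 was there to compare. It rose 7.55-fold in M1 (2.92 ± 0.26, SE; limma adjusted p = 0.024) and 6.46-fold in I1 (2.69 ± 0.26; limma adjusted p = 0.037). Rrm2, the S phase subunit of ribonucleotide reductase, read 12.20 and 12.13 in BL185, against 13.60 and 14.11 in M1 and 13.91 and 14.16 in I1. The arrays were well apart, but the change missed the threshold in both lines (1.69 ± 0.24 and 1.87 ± 0.24; limma adjusted p = 0.058 and 0.060). Its 2 other probe sets gave 1.95 and 2 in M1 and 2.23 and 2.11 in I1. Rrm1, the other subunit, had changes of 1.64 and 1.63, and relative to the parent Rrm2 exceeded it by 0.24 and −0.13 on the M1 arrays and 0.24 on both I1 arrays.

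Dut, which breaks down dUTP, had changes of 0.59 and 0.51. Tyms, which makes thymidylate, lay between 7.38 and 8.39 on all arrays, at the level of the array medians, and its 3 other probe sets were dimmer, so its change could not be sized here. Ung, which cuts uracil out of DNA, went the other way from most of the list. It read 10.25 and 9.75 in BL185, against 8.83 and 10.55 in M1 and 9.51 and 9.45 in I1, below the parent on both I1 arrays and on either side of it in M1 (−0.31 ± 0.58 and −0.52 ± 0.58, SE; limma adjusted p = 0.74 and 0.75).

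The 3 measured chromatin genes had medians of 1.58 in M1 and 1.20 in I1, with 0 of 3 called and 2 at an unadjusted p under 0.05 in each line. Uhrf1, which recruits the maintenance methyltransferase to newly copied DNA, read 9.23 and 8.91 in BL185, against 10.67 and 11.85 in M1 and 10.81 and 11.12 in I1 (2.19 ± 0.42 and 1.90 ± 0.42, SE; limma adjusted p = 0.10 and 0.17). A dimmer probe set of Uhrf1 gave 0.55 and 0.32. Chaf1b, a subunit of CAF-1, read 8.72 and 8.73 in BL185, against 9.80 and 10.81 in M1 and 9.91 and 9.95 in I1. Dnmt1, the methyltransferase itself, had the smallest changes of the 3, 0.63 and 0.48. All 3 were higher without overlap with the parent in both lines, as were 26.2% of all genes in M1 and 42.6% in I1.

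Over the whole list, arrays of M1 and BL185 did not overlap for 32 genes, all higher, where 26.2% of all genes were higher without overlap and 25.7% lower. Between I1 and BL185 this held for 40 higher (42.6% of all genes) and 2 lower (33.5%), the latter being Rfc3 and Ung. The 34 genes with several probe sets gave a further reading. Of their 53 other probe sets, 49 had the sign of the chosen one in M1 and 46 in I1. For the 29 with a mean log2 of at least 8.5, the median change was 0.94 in M1 and 0.89 in I1, and for the 24 dimmer ones it was 0.23 and 0.22. Probe sets of a gene share the RNA and the array, so they are not replicates.

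**Figure D4:**
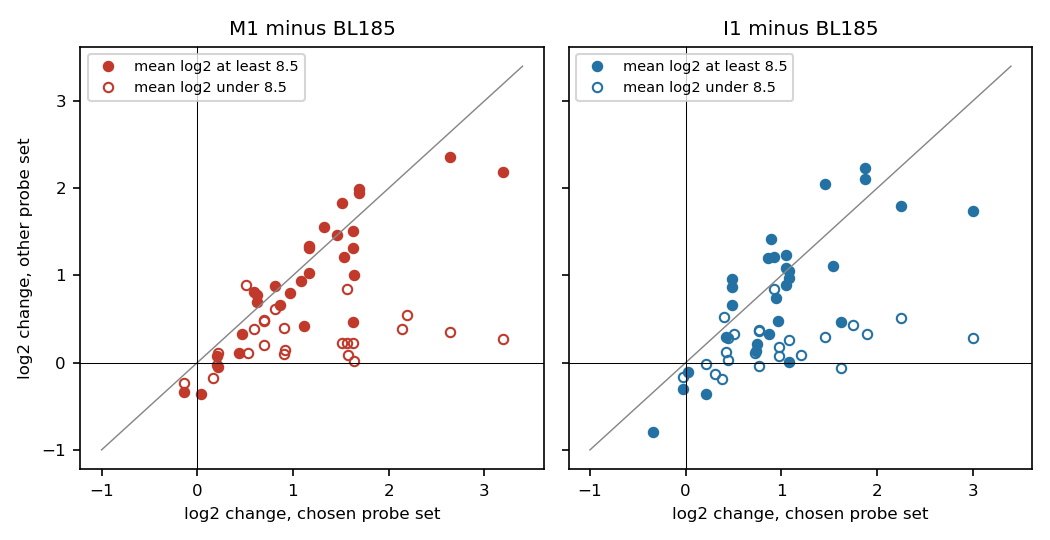
Log2 change of each of the 53 other probe sets (y axis) against that of the chosen probe set of the same gene (x axis) in M1 and I1, with filled circles for a mean log2 of at least 8.5, open circles below that and a line of equal change. The filled points scatter about or below the line, with medians of 0.94 and 0.89, and the open points lie lower, at 0.23 and 0.22.

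The selected lines were also compared with each other. By limma 0 of the 46 genes, and 0% of all genes, passed an adjusted p of 0.05 for I1 against M1. At an unadjusted p under 0.05, 0 were higher (1.83% of all genes) and 1 was lower (0.418%), namely Mcm10. The median change was −0.19, 0 genes were higher in I1 without overlap (8.13% of all genes) and 6 were lower (7.96%): Mcm2, Mcm3, Mcm10, Gins3, Pole and Fen1. The direction depended on the M1 array. Without M1 replicate 1, 34 of the 46 were called lower in I1 (13.4% of all genes) and 0 higher (7.2%) with a median of −0.65, and 4 were called at least 2-fold lower (1.24%) and 0 higher (0.786%). Without M1 replicate 2, 19 were called higher and 1 lower with a median of 0.29, where 36.1% of all genes were called higher and 20.9% lower. Which of the selected lines has the higher level was not settled by these arrays.

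Median changes with and without a promoter word are given as a description, with no test. The 16 genes with a word had median changes of 1.04 in M1 and 0.90 in I1, and the 21 others with a promoter window had 0.90 and 0.76. With a CCAAT box the medians were 0.97 and 0.86, and without one 0.91 and 0.76. Searched on both strands as well were the GC box, GGGCGG, found for 28 of the 37 (75.7%, against 38.2% of all genes with a window), and the CHR element, TTTGAA, found for 6 (16.2%, against 20.2%). Words of different kinds were counted separately and may overlap. Medians were 0.66 in M1 and 0.62 in I1 with a GC box and 1.59 and 1.13 without, and 0.61 and 0.39 with a CHR element and 0.97 and 0.86 without. Of the E2F genes themselves, the repressor E2f8 rose in M1, where it read 9.63 and 10.10 against 7.96 and 7.99 in BL185 (1.89 ± 0.22, SE; limma adjusted p = 0.040). In I1 it read 9.24 and 9.36 (1.32 ± 0.22; limma adjusted p = 0.10). The parent values of E2f8 are at the array medians, which cannot be told from background. The related repressor E2f7 read 8.01 and 7.88 in BL185, against 9.44 and 10.68 in M1 and 9.27 and 9.40 in I1 (2.11 ± 0.42 and 1.38 ± 0.42; limma adjusted p = 0.11 and 0.29). The parent values of E2f7 are about the array medians as well. Among the activators, E2f1 had changes of 0.37 and 0.39, E2f2 0.67 and 0.49, and E2f3 −1.33 and −0.91, none of them called. E2f4, E2f5 and E2f6 had −0.29, 0.48 and −0.63 in M1 and −0.48, 0.47 and −0.61 in I1, and were not called either. Of the 13 measured E2F and RB family genes, 1 rose and 0 fell in M1 (0.275% and 0.605% of all genes), and 0 were called in I1. At an unadjusted p under 0.05, 3 were higher and 2 lower in M1 (3.92% and 11.5% of all genes). In I1 3 were higher and 1 lower (4.18% and 7.47%).

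Other genes of the pathway had smaller median changes. Of 30 other replication factors, 1 rose and 0 fell in M1, with a median change of 0.43, or 1.00 without M1 replicate 1. In I1 0 were called, and the median was 0.17. At an unadjusted p under 0.05, 6 were higher and 1 lower in M1, and 5 and 2 in I1. Of all genes 3.92% were higher and 11.5% lower at that p in M1, and 4.18% and 7.47% in I1. The called gene was Chtf18, the large subunit of an alternative clamp loader, which read 7.92 and 7.78 in BL185, against 9.43 and 9.47 in M1 and 9.30 and 9.19 in I1 (1.60 ± 0.17 and 1.40 ± 0.17, SE; limma adjusted p = 0.031 and 0.054). Its parent values too are at the array medians. Of 11 other deoxynucleotide enzymes 0 were called in either line (2 higher and 2 lower at an unadjusted p under 0.05 in each), with medians of −0.06 and 0.12. For 18 enzymes that build purine and pyrimidine bases from small precursors or salvage them, 0 were called, 0 and 1 were lower and 0 higher at an unadjusted p under 0.05, and the medians were −0.43 in M1 and −0.35 in I1. Arrays did not overlap for 6 of the 18, all lower, in M1 (25.7% of all genes) and for 13 lower (33.5%) and 2 higher (42.6%) in I1. Without M1 replicate 1 the median of the 18 was 0.09 in M1 and −0.35 in I1. No difference between these lists and the 46 genes was tested.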

How the data were processed

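Expression was measured on 6 Affymetrix mouse arrays, 2 for each of BL185, M1 and I1. The values the authors deposited are log2 signals of probe sets, for which the submitters' processing notes name RMA and the affy package. Software versions and settings are not given in the sources here. Scanner files were not used here, so no other background correction could be run.

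The platform annotation gives 34945 of the 45101 probe sets 1 gene, 932 several and 9160 none, and 64 are controls. 34741 of the 1-gene probe sets matched a RefSeq gene table (GRCm38.p6) by Entrez identifier, and 0 symbols changed. The brightest probe set on average stood for a gene, which left 18193 genes. No filter on low values was used. The number of unused sample columns was 0.

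A linear model with 1 mean for each line was fitted to the 6 arrays with limma 3.58.1 (R 4.3.3), with 3 residual and 2.27 prior degrees of freedom after eBayes. P-values were adjusted by Benjamini-Hochberg over all 18193 genes within a comparison, with a threshold of 0.05. Errors of log2 changes are SEs of this fit, and other errors are SDs. The fit was run on simulated arrays with known changes. A high recovery was required only where every line had the BL185 spread, not with each line's own spread. The 47 genes, the pathway and marker lists and the tests were chosen with earlier results of these data known. Named genes are all 46 measured members, called genes of the pathway lists, E2f1 to E2f8, and a fixed set of defining cell type markers; any others are marked as chosen after their values were seen. Promoters came from RefSeq windows of 250 bases before to 50 after a transcription start. Numerical work used Python 3.11.15 with pandas 2.3.3, and figures matplotlib 3.10.9. Alternatives were another probe set rule, normalizations, filters, variance models and blocks, and each array left out.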

Additional observations from a re-analysis of the deposited data

How the results depend on the processing

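The median change of the 46 genes stayed above 0 in M1 and I1 against BL185 under each alternative run, and the number of genes called did not hold. The share of all genes called, given here in parentheses, moved as well. For M1 the count of 3 became 7 with probe sets averaged per gene (1.86%), 29 with quantile normalization (6.46%), 34 with cyclic loess (10.1%), 5 with array weights (1.71%) and 0 with only the arrays of the lines compared (0%). For I1 the count of 3 became 22 with quantile normalization (5.39%), 25 with cyclic loess (8.49%), 39 with array weights (47%) and 40 with only the arrays of the lines compared (46.6%), and 2 of the 39 and of the 40 were lower. Leaving out each array in turn gave 0 to 45 genes in M1 (0 to 70.8%), 0 to 40 in I1 (0 to 46.6%) and 0 to 34 for I1 against M1 (0 to 57%), where an array left alone in its line takes its spread from the other lines. In M1 the highest count came from the fit without M1 replicate 1 and the highest share from the fit without M1 replicate 2. The same held for I1 against M1, so the upper ends of these ranges do not pair a count with its share. The I1 median of 0.87 became 0.62 with probe sets averaged per gene, 1.05 with quantile normalization, 1.03 with cyclic loess, 1.01 relative to genes of similar signal, and 0.75 to 0.96 with each array left out. The cause of these shifts was not tested.

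With the replicate number as a block, 1 gene, Pclaf, was called in M1 (0.209%) and 0 in I1 (0.0055%), so Tk1 and Mcm5 lost their calls in both lines. The numbers did not show a pairing shared by all 3 lines. Deviations from the line means correlated at −0.13 between BL185 and M1, 0.16 between BL185 and I1 and 0.37 between M1 and I1. Replicate 2 read higher than replicate 1 for 44 of the 46 genes in M1, 42 in I1 and 14 in BL185. A pairing of M1 with I1 alone was not tested. Crossing the M1 numbers, chosen after seeing the data, gave 0 in each.

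Single genes changed direction against a called value only when an M1 array was left out. Over the arrays left out in turn, the change in M1 against BL185 ran for Orc6 from −0.48 to 0.99, Gins4 from −0.44 to 0.68, Pola1 from −1.01 to 1.34, Rfc1 from −0.81 to 0.53, Rfc3 from −0.37 to 0.45 and Ung from −1.17 to 0.55. The difference of I1 from M1 ran for Orc6 from −0.98 to 0.49, Cdc6 from −1.59 to 0.66, Gins2 from −0.48 to 0.49, Gins4 from −0.62 to 0.51, Pola1 from −0.96 to 1.39, Pole2 from −0.85 to 0.47, Rfc4 from −0.70 to 0.80, Rpa2 from −0.88 to 0.61, Rnaseh2b from −0.57 to 0.63, Rrm1 from −0.45 to 0.43, Dut from −0.63 to 0.46, Ung from −1.07 to 0.65 and Dnmt1 from −0.66 to 0.37. A further 79 of 2343 values changed sign with no call on either side, from changes of at most 0.43. With 2 arrays a line, precision is limited by their number, and signals about the array median cannot be told from background.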
